A study of Homo sapiens with 9 samples.

Results

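MACROD2, PDE4D and CSMD1 are very large human genes that are often found deleted in colorectal tumours. The rule that picks them uses that and their place in the genome and no measured value, although it was set with earlier results of these data known. They are 3 of the 20056 protein-coding genes named in the RefSeq table of GRCh38.p14. In the hg19 build used by the deposited tables, MACROD2 lies on chromosome 20 from 13976001 to 16034000, PDE4D on chromosome 5 from 58265001 to 59784000, and CSMD1 on chromosome 8 from 2793001 to 4852000. Each gene was taken with 500 kb of flank on either side. The genes and their flanks made up 173 windows of 50 kb, all of which were among the 56728 windows kept of 60739 on the autosomes and chromosome X. Of these windows, 61 belonged to MACROD2, 51 to PDE4D and 61 to CSMD1. The gene bodies alone held 41, 31 and 41 windows.

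Nascent DNA was sequenced from unsynchronised cultures of HCT116, a colorectal carcinoma line, and RPE1, a retinal pigment epithelial line immortalised with telomerase. Cells took up a pulse of EdU, a thymidine analogue that marks newly made DNA, and were sorted into early, mid and late S phase before the marked DNA was pulled down and sequenced. The design gives 1 set of 3 libraries for HCT116 and 2 sets of 3 for RPE1, called RPE1 set 1 and RPE1 set 2, with no genetic change or drug named for any of them. No label says if the RPE1 sets were grown apart, and the HCT116 early library carries no replicate number while its mid and late libraries carry replicate number 2.

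During S phase the genome is copied in an order that is largely set for each cell type, and regions rich in active genes tend to be copied early. Very long genes in gene-poor surroundings are often copied late, and some of them are known as fragile sites, which break when replication is slowed. MACROD2 codes for a macrodomain enzyme that removes ADP-ribose from proteins. PDE4D codes for a phosphodiesterase that breaks down the signalling molecule cyclic AMP. CSMD1 codes for a large membrane protein built of CUB and Sushi domains and linked to the control of complement. MACROD2 is transcribed towards higher coordinates and the others towards lower ones, so the 5′ end of MACROD2 is its lower end and that of PDE4D and CSMD1 the upper end. In the order of protein-coding genes given by RefSeq for GRCh38.p14, SEL1L2 and KIF16B stand on either side of MACROD2, which holds FLRT3 within it. PDE4D stands between RAB3C and DEPDC1B, and CSMD1 follows MYOM2.

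The tables have no column names, and no source used here says which of the 3 count columns of a set is early, mid or late S. Each column is therefore known here by its position in the table alone, as library A, library B or library C, and was given to no fraction. Every comparison between sets assumes that a position holds the same fraction in all 3 tables, which no source used here states. The libraries were scaled to equal totals within a set, and the reads of a gene or window were expressed as the share of scaled reads held by each library. The main measure was the share of library C minus that of library A, in percentage points, called C minus A. It is a contrast between columns, and its sign says nothing of early or late. The smallest and largest libraries held 6639310 and 12276325 reads in HCT116. Those of RPE1 set 1 held 6170299 and 15854234 reads, and those of RPE1 set 2 held 16019553 and 22930078. Over all kept windows the median C minus A was -8.20 points in HCT116, -0.57 in RPE1 set 1 and 3.10 in RPE1 set 2, with SDs of 31.8, 43.2 and 34.9. The RPE1 sets followed each other closely (Pearson r = 0.988 over 56728 windows), and HCT116 followed them less closely, at 0.823 and 0.820. Neighbouring windows are not independent, so these correlations are descriptions. With 1 HCT116 set against 2 RPE1 sets the smallest p an exact permutation can give is 0.333, and no test was made. Differences are read against the spread of the RPE1 sets only, and HCT116 has no replicate error of its own.

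PDE4D was the gene over which the lines were farthest apart. Most of its scaled reads fell in library C in HCT116, whereas library B held the largest share in both RPE1 sets. The HCT116 shares over the gene body were 18.7% in A, 27.2% in B and 54.1% in C, from 13172 reads. RPE1 set 1 had 24.7, 42.0 and 33.3% from 14415 reads, and RPE1 set 2 had 26.2, 43.5 and 30.3% from 25378 reads. The 95% Wilson interval of the C share was 53.3 to 55.0% in HCT116, 32.6 to 34.0% in RPE1 set 1 and 29.7 to 30.9% in RPE1 set 2. Intervals here cover counting error only and hold the split between the other libraries fixed. C minus A was 35.5 points in HCT116, and 8.59 and 4.03 points in RPE1, a mean of 6.31 ± 3.23 (SD, n = 2). The difference of 29.2 points was several times the spread of the RPE1 sets.

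MACROD2 differed the other way and by less. Library C led in all sets, with a lower share in HCT116 than in either RPE1 set. The HCT116 shares over the gene body were 19.5% in A, 27.5% in B and 53.0% in C, from 17759 reads. RPE1 set 1 had 15.1, 16.4 and 68.6% from 32701 reads, and RPE1 set 2 had 14.7, 25.8 and 59.5% from 30095 reads. The C share had an interval of 52.2 to 53.7% in HCT116, 68.0 to 69.1% in RPE1 set 1 and 59.0 to 60.1% in RPE1 set 2. The RPE1 sets were themselves apart in library C and, with the opposite sign, in library B, while their A shares were close. C minus A was 33.4 points in HCT116 and 53.5 and 44.8 points in RPE1 (49.1 ± 6.12, SD, n = 2), a difference of -15.7. When each set was centred on its autosomal median, MACROD2 stood at 42.5 points in HCT116 and 58.0 and 44.5 points in RPE1. The centred difference of -8.73 was smaller than the centred RPE1 SD of 9.57, although HCT116 was still below both sets.

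CSMD1 was alike in all sets. Library C held 63.6% of its scaled reads in HCT116, against 67.6 and 61.9% in the RPE1 sets, so that HCT116 lay between them. Library A held 17.8% in HCT116 and 15.7 and 14.1% in RPE1, and library B held 18.6% in HCT116 and 16.7 and 24.0% in RPE1. These shares came from 16528 reads in HCT116, 31373 in RPE1 set 1 and 28771 in RPE1 set 2. C minus A was 45.8 points in HCT116 and 51.9 and 47.8 points in RPE1 (49.9 ± 2.93, SD, n = 2). The difference of -4.01 had no stable sign, since it became 2.98 after centring, when HCT116 at 55.0 points lay between RPE1 values of 56.5 and 47.5.

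**Figure D1:**
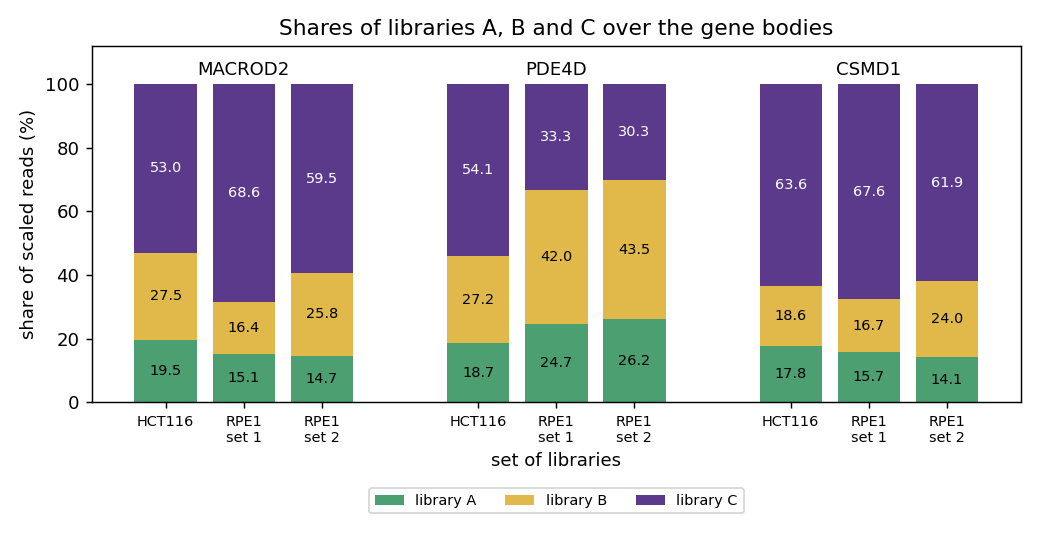
Shares of scaled reads (%, vertical axis) held by libraries A, B and C over the bodies of MACROD2, PDE4D and CSMD1, with 1 bar each for HCT116, RPE1 set 1 and RPE1 set 2. Library C holds 54.1% of PDE4D in HCT116 against 33.3 and 30.3% in RPE1, while library C holds at least 61.9% of CSMD1 in every set.

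The gaps in C minus A between the genes therefore differed between the lines, but no pair reversed its order beyond the spread of the RPE1 sets. HCT116 ranked CSMD1 first at 45.8 points, then PDE4D at 35.5 and MACROD2 at 33.4. MACROD2 and CSMD1 lay close together at the top in RPE1 and changed places between its sets, so that pair was not ordered beyond its spread, and PDE4D was far below. CSMD1 exceeded PDE4D by 10.4 points in HCT116, against 43.3 and 43.7 points in RPE1. MACROD2 minus PDE4D was -2.05 points in HCT116, against 44.9 and 40.8 points in RPE1. The HCT116 gap is within what the RPE1 sets differ by for the same pair, whose SD was 2.90, so HCT116 does not order these genes either. CSMD1 minus MACROD2 was 12.4 points in HCT116 and -1.55 and 2.96 points in RPE1.

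Set against all kept windows, CSMD1 was near the C end of every set. Only 7.0% of windows had a C minus A at or above its value in HCT116, and 13.0 and 8.24% did in RPE1. For MACROD2 these shares were 23.1% in HCT116 and 10.3 and 13.6% in RPE1. PDE4D stood at 21.0% in HCT116 but at 45.6 and 49.4% in RPE1, close to the middle of the genome. These ranks do not depend on centring.

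**Figure D2:**
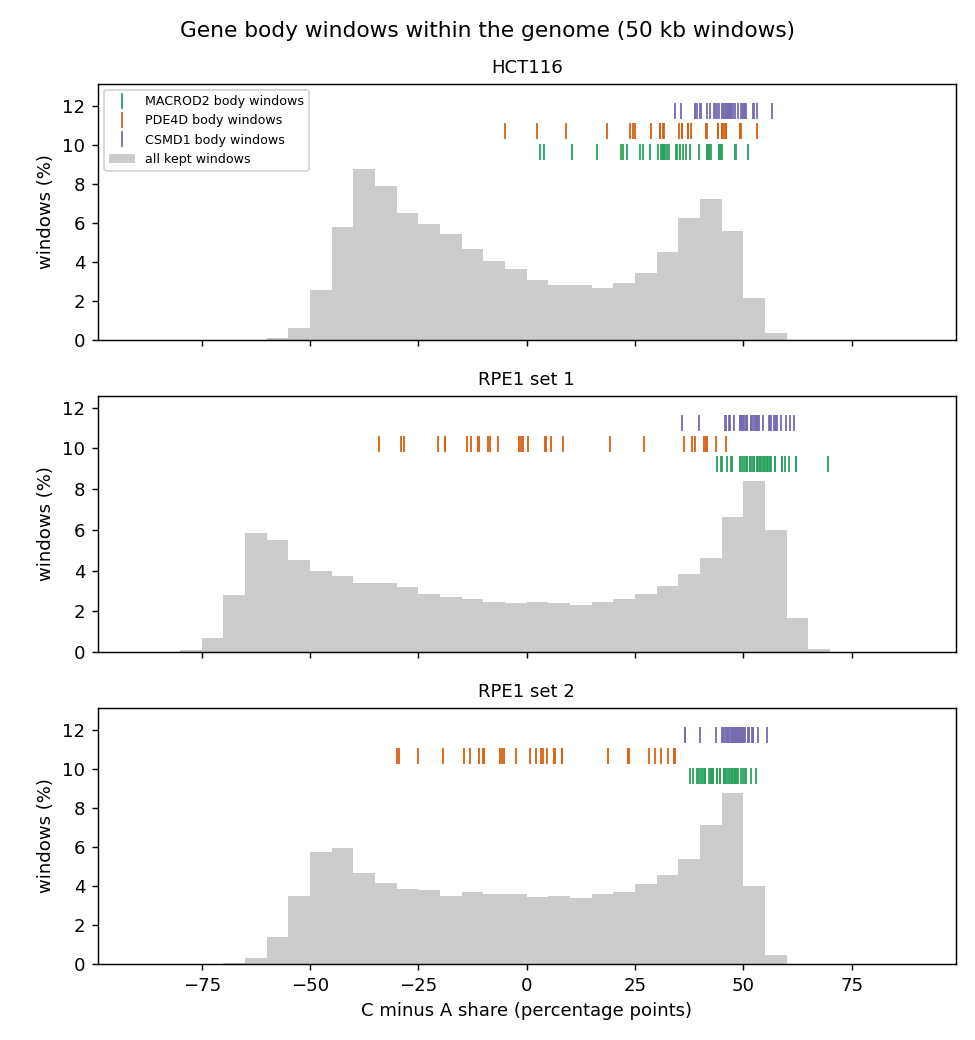
Percent of all kept 50 kb windows (vertical axis) at each C minus A share (percentage points, horizontal axis, grey bars) in HCT116, RPE1 set 1 and RPE1 set 2, from top to bottom, with a tick at the value of each gene body window placed above the bars. CSMD1 ticks sit near the upper end in every set, and PDE4D ticks run from -34.0 to 46.0 points in RPE1 set 1 and from -5.04 to 53.3 points in HCT116.

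The gene average hid a sharp division within PDE4D. The gene was cut into 4 equal segments, numbered from the 5′ end. C minus A in HCT116 was 21.2, 41.4, 45.9 and 32.3 points. The same segments had -5.78, -11.6, -0.31 and 41.3 points in RPE1 set 1, and -3.18, -8.42, -2.52 and 30.04 points in RPE1 set 2. Segments 1 to 3 were thus above 0 in HCT116 and below 0 in both RPE1 sets, and segment 4, at the 3′ end, was alike, with HCT116 between the RPE1 sets. Library B was the largest share of segments 1 to 3 in RPE1, at 54.1, 49.9 and 44.6% in set 1 and 50.3, 44.9 and 42.9% in set 2. In HCT116 it held 35.8, 23.4 and 20.9% of those segments.

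A window was counted as differing where C minus A in HCT116 lay at least 20 points above both RPE1 sets, or at least 20 points below both. Over all kept windows, 8.38% were higher by this rule and 15.2% lower. The RPE1 sets were that far apart from each other in 3.19% of windows. PDE4D with its flanks had 20 of 51 windows higher, or 39.2%, and 0 lower. Its body had 18 of 31 higher, or 58.1%, against the 8.38% of the genome. After centring each set, 27 of the 51 were higher, against 18.2% of all windows.

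All 18 of the body windows were adjacent and formed 1 stretch of 900 kb from 58700001 to 59600000. There the HCT116 shares were 17.4% in A, 23.9% in B and 58.7% in C. RPE1 set 1 had 28.7, 49.5 and 21.8%, and RPE1 set 2 had 29.9, 45.7 and 24.4%. C minus A over the stretch was 41.4 points in HCT116 and -6.94 and -5.47 points in RPE1. The stretch is made of windows picked for a difference of at least 20 points, so these values describe it and lend the difference no support. The single window farthest apart ran from 59100001 to 59150000, at 49.5 points in HCT116 against -28.9 and -25.1 points in RPE1.

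Within the gene, HCT116 peaked where RPE1 was low. The highest body window of HCT116, from 58900001 to 58950000, had 53.3 points, against -13.7 and -11.1 points in RPE1. The lowest body window of both RPE1 sets ran from 59050001 to 59100000, 709 kb from the 5′ end by its midpoint, with 41.7 points in HCT116 and -34.0 and -30.02 points in RPE1. The lowest body window of HCT116 was the one at the 5′ end itself, from 59750001 to 59800000, at -5.04 points, against -28.4 and -19.3 points in RPE1. The highest body windows of RPE1 lay near the 3′ end, from 58450001 to 58500000 in set 1 at 46.0 points and from 58350001 to 58400000 in set 2 at 34.1 points. HCT116 had 31.6 and 24.7 points in these windows. Along the 31 body windows, C minus A of the RPE1 sets moved together (r = 0.977), while HCT116 showed no such relation to them (-0.04 and -0.10). These coefficients describe neighbouring windows of shared libraries and carry no p-value.

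In terms of the leading library, a single C-led run of 1.85 Mb, from 57800001 to 59650000, covered 91.2% of PDE4D in HCT116. The corresponding run was 0.85 Mb in RPE1 set 1, from 57850001 to 58700000, and 0.75 Mb in RPE1 set 2, from 57850001 to 58600000, and covered 28.6 and 22.1% of the gene. The lower edge of the run differed by 50 kb between the lines, which is 1 window, and the upper edge lay 950 and 1050 kb further towards the 5′ end of the gene in HCT116. The rest of the gene was led by B in RPE1 set 1. In RPE1 set 2 it was led by B except for 150 kb from 59000001 to 59150000, which A led.

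The flanks of PDE4D differed less than its body. The lower flank, beyond the 3′ end, had 34.0 points in HCT116 and 36.4 and 28.6 points in RPE1, so HCT116 lay between as measured. After centring it lay above both, at 43.2 points in HCT116 and 41.0 and 28.3 points in RPE1. The upper flank, beyond the 5′ end, had -12.1 points in HCT116 and -31.1 and -21.8 points in RPE1. HCT116 was higher there by 14.3 points.

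**Figure D3:**
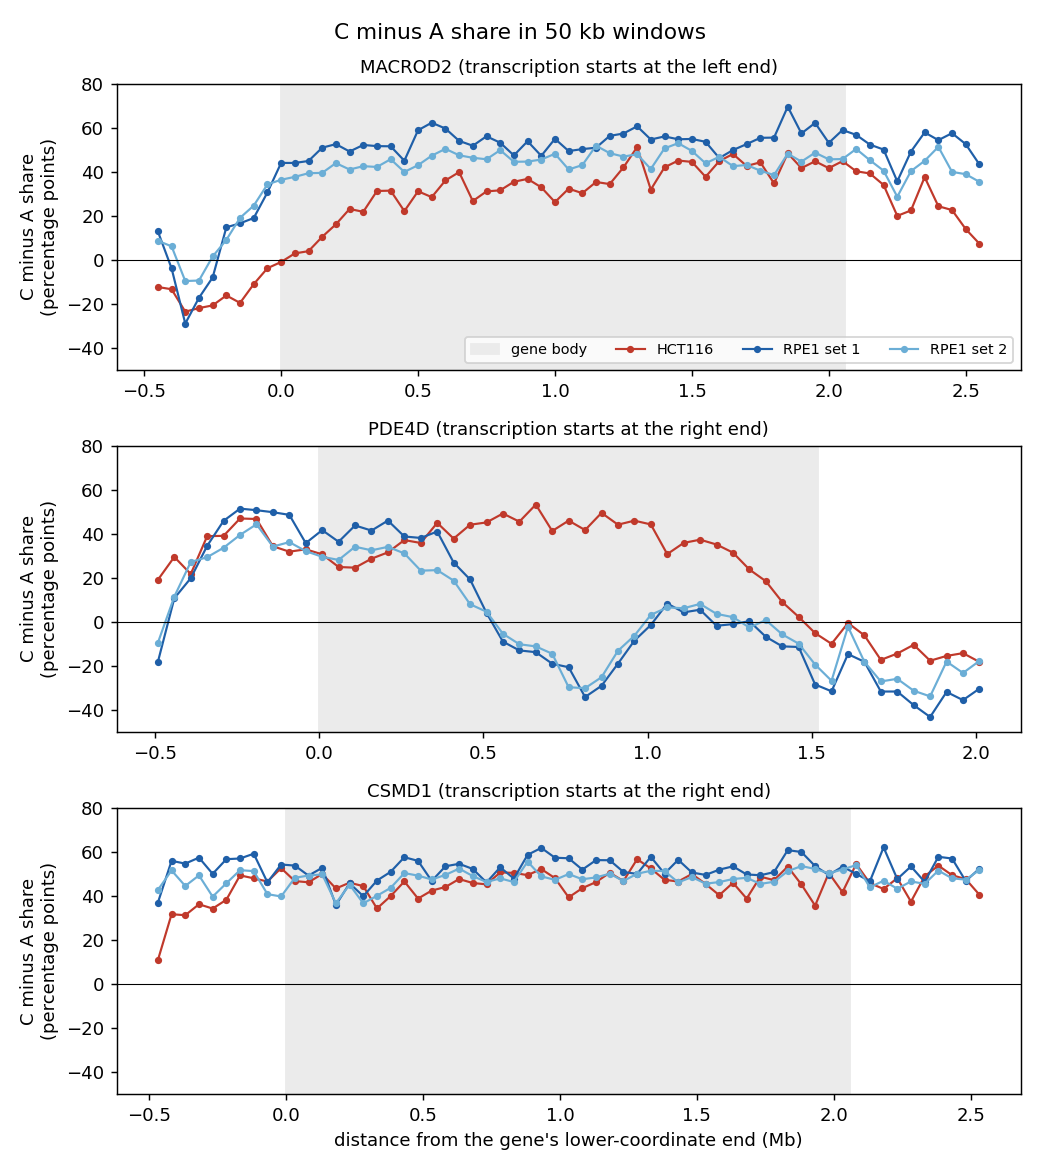
C minus A share (percentage points, vertical axis) in 50 kb windows along MACROD2, PDE4D and CSMD1, from top to bottom, against the distance in Mb from the lower end of each gene, with the gene body shaded and 1 line each for HCT116, RPE1 set 1 and RPE1 set 2. HCT116 stays near 40 points through most of PDE4D where both RPE1 lines fall below 0, starts lower than RPE1 at the 5′ end of MACROD2, and runs beside them in CSMD1.

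Over MACROD2, the distance between the lines was greatest at the 5′ end and narrowed towards the 3′ end. In segments 1 to 4 from the 5′ end, C minus A was 18.4, 32.9, 39.1 and 43.2 points in HCT116. RPE1 set 1 had 49.7, 54.1, 54.6 and 55.5 points, and RPE1 set 2 had 41.3, 46.9, 47.1 and 44.4 points. HCT116 was below both RPE1 sets in every segment, with differences from their mean of -27.1 points in segment 1 and -6.74 in segment 4. After centring, segment 1 differed by -20.1 points, with a centred RPE1 SD of 9.36, and segment 4 by 0.25 points with HCT116 between the RPE1 sets.

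As measured, HCT116 lay below both RPE1 sets in 56 of the 61 windows of MACROD2 and its flanks, and above both in 0. Of all kept windows 44.6% were below both and 38.7% above both. This count was not repeated after centring. Segment 3 of the gene, at 48.2 points in HCT116 when centred, then lay between 59.2 and 46.8 points in RPE1. By the 20-point rule, 15 of 61 were lower, or 24.6%, against 15.2% of all windows, and 0 were higher. In the body the count was 6 of 41, or 14.6%, near the share of the genome. After centring, 6 of the 61 were lower, against 9.24% of all windows. A share near that of the genome is no result about the gene. Most of the differing windows were instead at its 5′ end, where 9 adjacent windows formed a stretch of 450 kb from 13750001 to 14200000 that spans the start of the gene.

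In that stretch the HCT116 shares were 27.4% in A, 47.1% in B and 25.5% in C, so library B led. RPE1 set 1 had 21.1, 22.1 and 56.8%, and RPE1 set 2 had 18.4, 32.2 and 49.3%, so library C led in both. C minus A was -1.97 points in HCT116 and 35.7 and 30.9 points in RPE1, a gap that the choice of windows fixed in part. The lowest body window of MACROD2 was the same in all sets, from 14000001 to 14050000, with 2.97 points in HCT116 against 44.0 and 37.7 points in RPE1. The highest ones lay further in, from 15250001 to 15300000 in HCT116 at 51.2 points, from 15800001 to 15850000 in RPE1 set 1 at 69.5 points and from 15400001 to 15450000 in RPE1 set 2 at 53.0 points. Along the 41 body windows of MACROD2, r was 0.480 between the RPE1 sets, and 0.538 and 0.548 between HCT116 and them. The RPE1 sets thus did not follow each other more closely here than HCT116 followed them.

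The C-led run that holds MACROD2 was shorter in HCT116 at both ends. It ran for 2.3 Mb in HCT116, from 14150001 to 16450000, and left 8.45% of the gene, its 5′ end, in a run led by B. It ran for 3.45 Mb in RPE1 set 1, from 13750001 to 17200000, and for 3.35 Mb in RPE1 set 2, from 13800001 to 17150000, and held the whole gene in both. The HCT116 run began 400 and 350 kb later and ended 750 and 700 kb earlier than those of the RPE1 sets, which differed from each other by 50 kb at either end. The lower flank had -14.8 points in HCT116 and 7.86 and 10.7 points in RPE1, and the upper flank had 27.5 points in HCT116 and 51.2 and 41.3 points in RPE1.

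CSMD1 was uniform along its length. Library C led all 41 body windows in every set, and held at least 50% of scaled reads in each of them. Over all kept windows, library C led 34.3% in HCT116 and 42.0 and 37.4% in RPE1, and it held at least 50% of scaled reads in 25.9% in HCT116 and 34.1 and 26.8% in RPE1. Its segments 1 to 4 from the 5′ end had 44.7, 48.2, 47.1 and 43.7 points in HCT116, 52.6, 53.3, 53.3 and 48.6 points in RPE1 set 1, and 49.4, 48.5, 49.0 and 44.5 points in RPE1 set 2. Segment 4, at the 3′ end, was the lowest in every set. The SD over body windows was 4.76 points in HCT116 and 5.20 and 3.82 points in RPE1. The corresponding SDs were 13.8 in HCT116 and 24.8 and 19.0 in RPE1 for PDE4D, and 11.3 in HCT116 and 5.18 and 3.79 in RPE1 for MACROD2, so MACROD2 was more graded in HCT116 and PDE4D in RPE1.

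The C-led run around CSMD1 was 3.55 Mb long in HCT116, from 2350001 to 5900000. It was 3.95 Mb in both RPE1 sets, from 2100001 to 6050000 and from 2150001 to 6100000. Only 1 of 61 windows differed by the 20-point rule, with or without centring, and it was lower in HCT116. Of all windows, 15.2% were lower and 8.38% higher as measured, and 9.24% were lower and 18.2% higher after centring. The differing window lay in the lower flank from 2300001 to 2350000, with 10.8 points in HCT116 against 36.9 and 42.7 points in RPE1, just outside the edge of the HCT116 run. The lower flank as a whole had 36.6 points in HCT116 and 52.1 and 45.4 points in RPE1, and the upper flank had 46.8 points in HCT116 and 52.2 and 47.8 points in RPE1.

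Within CSMD1 the extreme windows fell in different places. The highest was 56.6 points in HCT116, from 4050001 to 4100000, where RPE1 had 49.9 and 50.0 points. It was 61.8 points in RPE1 set 1, from 3700001 to 3750000, and 55.5 points in RPE1 set 2, from 3650001 to 3700000. The lowest windows all lay in the part nearest the 3′ end, from 3100001 to 3150000 at 34.3 points in HCT116, from 2950001 to 3000000 at 35.8 points in RPE1 set 1 and from 3050001 to 3100000 at 36.6 points in RPE1 set 2. Along the 41 body windows r was 0.756 between the RPE1 sets and 0.244 and 0.291 between HCT116 and them. The gene body held 16528 reads in HCT116 against 31373 and 28771 in RPE1, and no counting error was given for single windows. The places of the extremes and the lower r of HCT116 are therefore descriptions, and a difference in profile was not tested.

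The leading library summarises the 3 genes. The same library led in all sets in 41 of 41 body windows of CSMD1, in 38 of 41 of MACROD2 and in 10 of 31 of PDE4D, against 64.4% of all kept windows. Of the PDE4D body windows, library C led 28 in HCT116, and 9 and 7 in RPE1, whereas it led 34.3% of all kept windows in HCT116 and 42.0 and 37.4% in RPE1.

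Because the genes are often deleted in colorectal tumours, the summed reads were examined for missing sequence in HCT116. The level of a gene was the mean of the 3 scaled libraries per kb, divided by the median autosomal window of the same set. The level was 1.02 for MACROD2, 1.03 for PDE4D and 1.02 for CSMD1 in HCT116. RPE1 had 1.14 and 0.878 for MACROD2, 0.841 and 0.962 for PDE4D, and 1.096 and 0.841 for CSMD1. Every gene body as a whole was therefore covered in HCT116 at close to the level of a typical window. HCT116 over the RPE1 sets gave ratios of 0.898 and 1.17 for MACROD2, 1.23 and 1.07 for PDE4D, and 0.928 and 1.21 for CSMD1. RPE1 set 1 over set 2 gave 1.30, 0.875 and 1.30 for the same genes, for MACROD2 and CSMD1 a gap as wide as any between the lines.

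Levels were also set against autosomal windows with a like C minus A, by dividing those windows into 50 classes in each set, a choice made after the data were seen. The ratios of HCT116 to the RPE1 sets were then 0.936 and 0.984 for MACROD2, 1.01 and 1.04 for PDE4D, and 0.989 and 0.998 for CSMD1. Within MACROD2, segment 2 from the 5′ end had lower ratios, 0.849 and 0.890, and segments 1, 3 and 4 had 0.958 to 1.09. This was not tested. On the same scale the arms that hold the genes were near 1 in both lines. In HCT116 the level was 0.992 for 20p, 0.978 for 5q and 1.00 for 8p, against RPE1 means of 1.00, 0.972 and 1.01. Arms known to be gained in these lines served as a check on the labels. HCT116 had 1.37 on 8q and 1.37 on 17q, against RPE1 means of 0.983 and 1.05, and 1.05 on 10q, against 1.38 in RPE1. Arm 16q, also named as gained in HCT116, was at 1.07 as a whole against 1.04 in RPE1.

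Smaller losses were sought in 10 kb windows, which held a median of 88 HCT116 reads in MACROD2 and PDE4D and 81 in CSMD1. A window was low where HCT116 had at most 0.5 times the level of both RPE1 sets, and high where it had at least 2 times that of both. On the autosomes 0.256% of 268371 windows were low and 0.0574% were high. PDE4D had 0 low and 0 high of 252 windows, and CSMD1 0 and 0 of 306. MACROD2 had 2 low and 0 high of 306. The low windows began at 14950001 and 14970001, with the window between them at 0.489 and 0.654 times the RPE1 levels, so no run of 3 low windows was formed in any of the genes. The rule is strict, since the median ratio to RPE1 set 1 and set 2 was 0.903 and 1.12 in MACROD2. It was 1.18 and 1.06 in PDE4D, and 0.938 and 1.23 in CSMD1. A window at 0.5 times its gene's median would lie above 0.5 against at least 1 set and not be called. Counts of 0 therefore cannot tell if such windows are present.

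The surroundings of these windows were followed up after their values had been seen. The ratio of HCT116 to RPE1 was divided by its median over 500 kb to either side, and runs of at least 5 windows below 0.8 against both RPE1 sets were taken. MACROD2 had 1 such run, 60 kb long from 14950001 to 15010000, and PDE4D and CSMD1 had 0. Shorter groups of low windows were not counted. In MACROD2 the windows with midpoints 709, 719 and 729 kb from the lower end were at 0.536, 0.619 and 0.698 against RPE1 set 1. Against RPE1 set 2 they were at 0.682, 0.612 and 0.592. Other adjacent windows were low too. Those at 59 and 69 kb were at 0.622 and 0.603 against set 1, and at 0.726 and 0.635 against set 2. Those at -41 and -31 kb, in the lower flank, were at 0.530 and 0.653 against set 1, and at 0.587 and 0.764 against set 2. On the autosomes 37 low runs were found, with a median length of 60 kb and a maximum of 160 kb, and they held 0.102% of windows. The run in MACROD2 is thus of ordinary length among the low runs of HCT116, and lies across the border of segments 2 and 3 of the gene.

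In this 60 kb the HCT116 libraries held 266 reads, or 4.43 reads per kb, against 8.76 per kb in the rest of the gene. RPE1 set 1 held 904 reads, at 15.1 per kb against 15.9, and RPE1 set 2 held 862, at 14.4 per kb against 14.6. The density inside over that of the rest of the gene was 0.506 in HCT116 (95% Poisson interval 0.447 to 0.571), and 0.947 (0.886 to 1.01) and 0.982 (0.917 to 1.05) in RPE1. HCT116 was therefore at about 0.525 times the RPE1 mean of 0.964 ± 0.025 (SD, n = 2), well outside the spread of the RPE1 sets and outside counting error. Since the stretch was picked for low HCT116 reads, these values describe it and do not test it.

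Each HCT116 library was low there. The density inside over outside was 0.530 in A (0.399 to 0.690), 0.577 in B (0.478 to 0.690) and 0.426 in C (0.343 to 0.523). RPE1 set 1 had 0.941, 0.852 and 0.957 in A, B and C, and RPE1 set 2 had 0.947, 0.908 and 1.03. The 6 windows held 34 to 66 HCT116 reads each, and the windows directly beside them held 81 below and 61 above. The 50 kb window from 14950001 to 15000000 was also the only one of the 6 lower body windows of MACROD2 that lay in this stretch, with 26.3 points in HCT116 against 55.0 and 48.2 points in RPE1. It held 227 HCT116 reads, against 767 and 758 in RPE1.

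**Figure D4:**
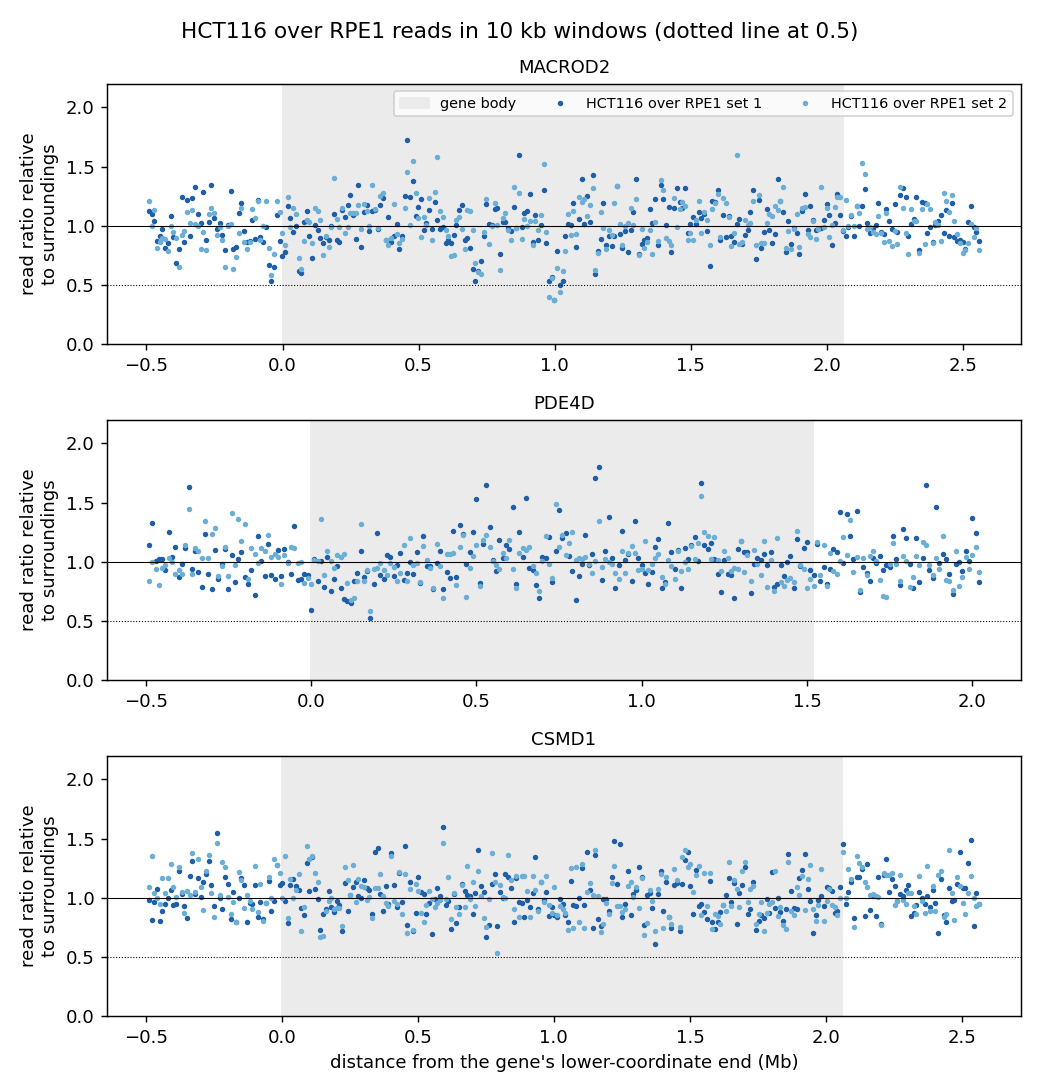
HCT116 reads over the reads of RPE1 set 1 and RPE1 set 2 in 10 kb windows, as a ratio to the median of the surrounding 500 kb on either side (vertical axis), against the distance in Mb from the lower end of MACROD2, PDE4D and CSMD1, from top to bottom, with the gene body shaded and a dotted line at 0.5. Points scatter about 1 along all genes, and the group of low points near 1.0 Mb in MACROD2 is the 60 kb stretch with 266 HCT116 reads. Shorter groups of low points lie elsewhere in MACROD2 and its lower flank, such as that at 709 to 729 kb.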

How the data were processed

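EdU-marked DNA from 9 libraries was analysed. There is 1 deposited table per set, with rows of 1 kb and 3 unnamed columns of read counts, which were used as given. The table names in the labels mark duplicates as removed, by a method not given in the sources used here. Build hg19 and the tools Bowtie2, SAMtools 1.2 and bedtools 2.25 are named in the submitters' processing notes, without the tools' roles. Single-end reads of 50 bases carry no molecular identifiers.

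Bins were summed to 50 kb windows, kept with at least 25 covered bins, 50 reads over the RPE1 libraries and 30 reads in each set. Each library was scaled to the mean total of its set over kept windows. Wilson intervals of shares and exact Poisson intervals of densities are at 95%. A 10 kb window needed 20 reads in each RPE1 set. Python 3.11.15, numpy 2.4.6, pandas 2.3.3, scipy 1.17.1 and matplotlib 3.10.9 were used. Window calls were tried on simulated data with planted changes, which held counting error only and no spread between the RPE1 sets.

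The genes named are the 3 chosen ones whatever their values. The windows named are the highest and lowest of each gene body, and others picked for their difference between the lines or for low HCT116 reads. The members, lists and measures were chosen with earlier results of these data known. Genes most like them and their paralogs were not placed, because no hg19 annotation was used here; gene order and strand came from RefSeq, and the strand of CSMD1 from general knowledge. Scaling totals, extreme bins, thinning to the smallest library, window size, thresholds and each RPE1 set left out were tried as alternatives. Centring, levels matched on C minus A and local runs were added after seeing the data.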

Additional observations from a re-analysis of the deposited data

Results flagged for a closer look

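The body, each flank, the body with flanks and 4 equal segments of each gene were looked at, so the intervals overlap. In 4 of these intervals HCT116 and both RPE1 sets had C minus A of opposite sign, and the difference was not tested. The share of all kept windows with such opposite signs was not counted, so this number is no result about the genes. The lower flank of MACROD2 had -14.8 points in HCT116, against 7.86 and 10.7 points in RPE1. PDE4D had 21.2 points in HCT116 in segment 1, the one of 4 equal segments at its 5′ end, against -5.78 and -3.18 points in RPE1. Segment 2 had 41.4 points in HCT116, against -11.6 and -8.42 points in RPE1, and segment 3 had 45.9 points in HCT116, against -0.31 and -2.52 points in RPE1. The sign depends on where 0 lies. With each set centred on its autosomal median, the MACROD2 flank stood at -5.67 in HCT116 against 12.4 and 10.3 in RPE1. PDE4D segments 1 to 3 stood at 30.4, 50.5 and 55.0 in HCT116, against -1.21, -7.02 and 4.26 in RPE1 set 1 and -3.48, -8.72 and -2.82 in RPE1 set 2, so the RPE1 sets no longer shared a sign in segment 3.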

How the results depend on the processing

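Of 215 alternative values, 174 stayed within the RPE1 SD or, for counts, within 1.5 times. A further 3 on the log2 scale could be compared in direction alone and kept it. Of the rest, 37 moved and 1 reversed, and causes were not tested. With only 2 RPE1 sets, leaving 1 out cannot move a gene's C minus A, difference or level ratio by this measure. Those values are counted among the 174 but were fixed in advance and show no stability. Many counts and shares of windows that were 0 and stayed at 0 are also among the 174, and say little of stability. Centring on the autosomal median gave HCT116 minus RPE1 differences in C minus A of -8.73 for MACROD2, 36.2 for PDE4D and 2.98 for CSMD1, the reversed one. It turned the share of differing windows that were lower to 33.7%, against 64.4% as measured, with 18.2% of all windows higher and 9.24% lower, and 9.84% of MACROD2 windows lower. With flanks the PDE4D difference was 20.7, and its matched level ratio was 1.02. At 10 points, 20.3% of all windows were higher and 26.4% lower, and 54.1% of MACROD2 and 14.8% of CSMD1 windows were lower. At 30 points these were 3.98, 8.32, 9.84 and 0%, with 23.5% of PDE4D windows higher. In 10 kb windows 1.19% of PDE4D windows were lower, and 0.654% of CSMD1 windows were higher and 6.86% lower. CSMD1 had 3.23% lower at 100 kb and 3.28% lower after thinning. Leaving out an RPE1 set gave 9.31 to 22.6% of all windows higher, 26.2 to 52.5% of MACROD2 and 1.64 to 6.56% of CSMD1 windows lower, 2 to 7 low 10 kb windows in MACROD2 and 0 to 3 high ones in PDE4D; the upper value of each is without RPE1 set 2. With ratios of 0.7 and 1.4, MACROD2 had 7 low and 1 high, PDE4D 1 and 4, and CSMD1 3 high. Windows of 50 kb gave 0 low in MACROD2, and local runs 6. Thinned, the 60 kb stretch was at 0.478 of the rest of MACROD2 in HCT116. PDE4D stayed higher in HCT116, by 20.7 to 36.2 points, and MACROD2 lower, in every alternative run, log2 of C over A included. No paired analysis was made, since no label states that the HCT116 set was paired with an RPE1 set, and nothing was tested. A 10 kb window with about 88 HCT116 reads limits the detection of smaller losses.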
